A study of Mus musculus with 25 samples.

Results

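The 60 probes described here were high in the pooled non-immune segments of peri-injured mouse lung. Their pooled immune levels there were above those of injured and healthy regions by less than a set limit. The 60 were chosen from the 20175 probes of a whole-transcriptome panel that were counted in 24 segments of 12 lung regions. The region classes were healthy (regions 1, 3 and 13), peri-injured (6, 9, 10 and 12) and injured (4, 5, 7, 8 and 11), and each region gave 1 CD68+ segment, labelled immune, and 1 CD45- segment, labelled non immune. To choose the members, counts were summed over the segments of a class and compartment and scaled to a total of 1000000 (CPM), and a level was log2(CPM + 20), so that every difference of levels below is in log2 units and understates the change of a low probe. A candidate needed at least 300 non-immune counts, a non-immune level less than 0.7 above the immune level in healthy regions, and a peri-injured immune level less than 0.3 above the injured and above the healthy immune level. The score m was the smaller of the non-immune differences peri-injured minus injured and peri-injured minus healthy, and the candidates with the highest m, of at least 0.4, were taken.

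Surfactant protein C is made by alveolar type II cells, the epithelial cells that secrete surfactant and renew the alveolar lining, and the I73T substitution disturbs the trafficking of the protein inside them. Tissue that lacks CD45 holds the epithelium, endothelium and mesenchyme of the alveolar wall, while CD68 marks macrophages and related myeloid cells. Peri-injured tissue borders remodeled areas and can hold cells in several stages of damage and repair.

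All tissue came from SP-C I73T mutant mice, which the labels give as male and from a germ-free facility, whereas the study's methods describe pathogen-free housing and both sexes for its animals as a whole. The healthy regions were from 1 control mouse, labelled untreated at day 0, and the peri-injured and injured regions were from 1 mouse at day 14 after oral tamoxifen, for which the labels give 175 mg/kg in corn oil as a single gavage and the study's methods a divided dose. In this model an estrogen receptor-controlled Flp-O recombinase at the Rosa26 locus removes a neomycin cassette from the Sftpc gene after tamoxifen, so the control mouse carried the same allele with its cassette in place. Recombination is thus not limited to a cell type by the promoter of the recombinase. Regions of a class are technical replicates of 1 mouse, p-values from regions overstate what is known about animals, and any comparison with healthy regions cannot be told apart from a difference between the 2 mice. Each segment pools many cells, so that fewer cells of a type and less RNA per cell cannot be told apart.

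Probes are given by identifier, because the sources used here hold no symbols for them. Gene names, roles and sequences were not analysed here, and neither the CD68 nor the CD45- label was checked against marker genes. Total counts ranged from 80259 to 671249 in the non-immune and from 21955 to 119493 in the immune segments. The non-immune peri-injured segments stood apart in one overall measure. The share of counts estimated as background from the 2018 least abundant probes was 30.4% to 34.1% in them, 37.8% to 40.8% in the injured and 36.5% to 47.5% in the healthy non-immune segments, so that the peri-injured values lay below all others. In immune segments the share was 27.4% to 34.7% in peri-injured, 37.0% to 40.4% in injured and 29.8% to 37.9% in healthy regions. The part of this background difference in the members' levels was not tested. When counts were scaled to the 75th percentile of a segment in place of its total, 48 of the 60 members were found again, and 56 kept an m of at least 0.4.

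Most probes that were high in peri-injured non-immune segments were not members, mainly because they exceeded a limit on the immune segments. Of the 20175 probes, 2319 had at least 300 non-immune counts, and only 957 of these kept all limits whatever their m. Of the 2319, 519 had an m of at least 0.4. Of the 519, 426 exceeded a limit on the immune segments and 39 the limit on healthy regions, with 35 exceeding both. An excess over either injured or healthy regions was enough for the immune limits, so these probes need not have been highest in peri-injured immune segments. The 89 that remained of the 519 were ranked by m, and the first 60 are the members. The step from inside to outside the list was small. The last members were RTS0078256, RTS0065850 and RTS0072062, with an m of 0.52, 0.52 and 0.51. The next candidates, RTS0067005, RTS0067992 and RTS0066776, had an m of 0.50, 0.50 and 0.50. The classes overlapped for 5 of these 6 probes, and RTS0067005, outside the list, was the exception. RTS0078256 had 133, 85.7, 147 and 124 CPM in peri-injured regions 6, 9, 10 and 12, and its highest healthy value, 150 CPM in region 13, was above all 4.

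The members had a moderate excess in peri-injured regions, and few had a large one. Differences between peri-injured and other segments chose the members, and are given throughout as a description with no test. The median m was 0.63, the range was 0.51 to 2.82, 39 members lay under 0.7 and 7 reached 1. Peri-injured exceeded injured by a median of 0.81 and healthy by 0.74 in the non-immune segments, against 0.27 and 0.17 in the 2259 other probes with at least 300 counts. Injured and healthy non-immune levels were close to each other, with a median difference of -0.05, 26 members higher in injured and 34 lower, and 33 within 0.3. The pooled level of the median member was 144 CPM in peri-injured, 70.7 CPM in injured and 71.2 CPM in healthy non-immune segments. In the immune segments it was 50.4 CPM in peri-injured, 56.7 CPM in injured and 77.4 CPM in healthy regions, so that the order of the classes was another one. The median excess of the non-immune over the immune level was 0.05 in healthy, 1.18 in peri-injured and 0.30 in injured regions.

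Summed over the 60 members, the 4 peri-injured non-immune segments stood clear of the other 8. The sum was 11377, 9032, 8781 and 9258 CPM in peri-injured regions 6, 9, 10 and 12. In injured regions 4, 5, 7, 8 and 11 it was 3841, 5775, 4519, 3665 and 4950 CPM, and in healthy regions 1, 3 and 13 it was 4942, 4440 and 4772 CPM. Every peri-injured value was above every other, and region 5 was the highest of the injured regions. The means were 9612 ± 1193 CPM (SD, n = 4), 4550 ± 858 CPM (SD, n = 5) and 4718 ± 256 CPM (SD, n = 3). A single probe, RTS0073598, accounted for most of the lead of region 6, and without it the peri-injured sums were between 8758 and 9634 CPM (9158 ± 373 CPM, SD, n = 4). The immune sums were in another order. They were 3655, 3872, 2547 and 4149 CPM in peri-injured regions 6, 9, 10 and 12, between 2971 and 3885 CPM in injured regions, and between 4308 and 4873 CPM in healthy regions. All 3 healthy immune sums were thus above all peri-injured and injured ones, which overlapped each other. In healthy regions the sums of the compartments were alike in size, and the immune sum of region 13 was above its non-immune one.

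**Figure D1:**
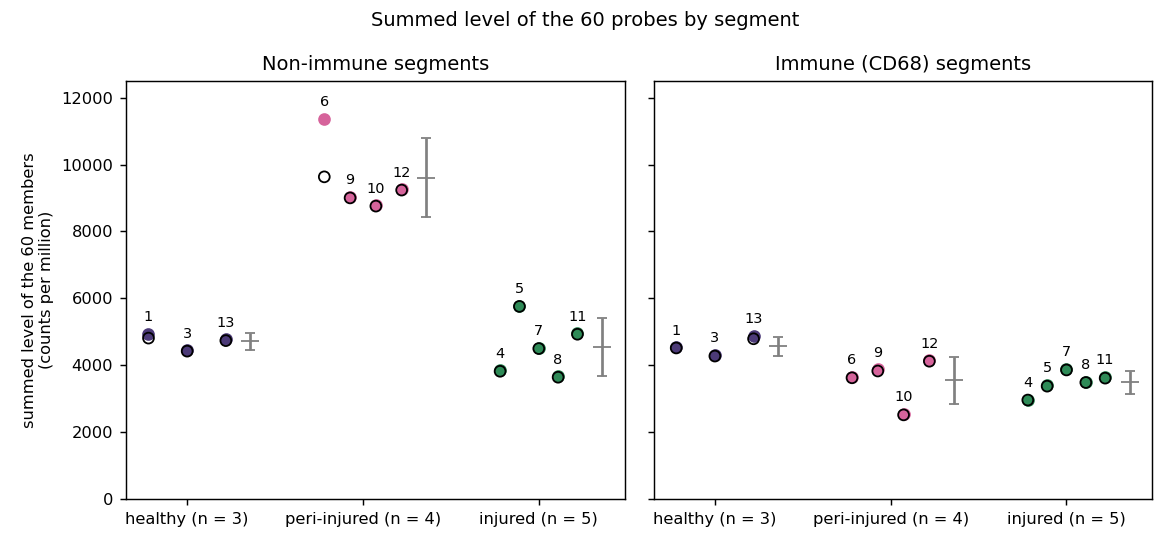
Summed level of the 60 members in CPM (vertical axis, from 0) for each segment, by region class, in the non-immune (left) and immune (right) segments. Filled points are labelled with the region number, open points leave out RTS0073598, and grey bars are the mean and SD of the filled points. The 4 peri-injured non-immune sums lie between 8781 and 11377 CPM and all others at or under 5775 CPM.

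Segment by segment, the separation held for less than all members. In 27 of 60 members (45%) every peri-injured non-immune value was above every injured and healthy one, a contrast that the choice of members used. Among the 6000 most abundant non-immune probes 5.48% had this order. Peri-injured values lay wholly above the injured ones in 38 members (12.8% of the 6000 probes) and wholly above the healthy ones in 37 (11.8%). The injured region nearest to the peri-injured level was most often region 5, which held the highest injured value in 31 members (51.7%), against 41.7% of the other probes with at least 300 counts.

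**Figure D2:**
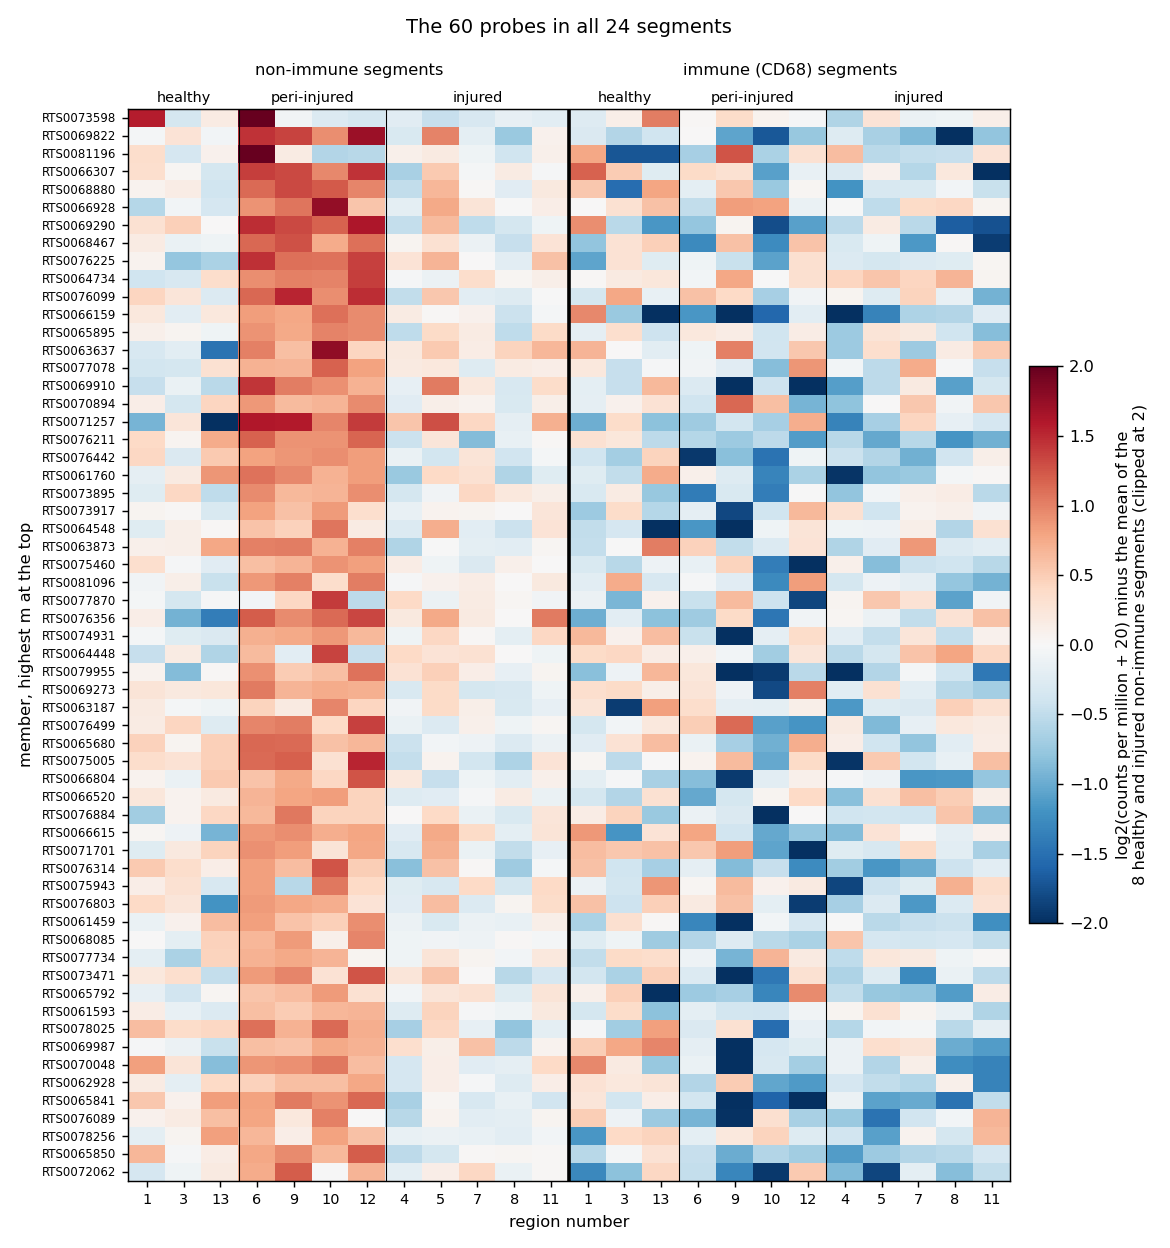
Level of each member (rows, by falling m) in each of the 24 segments (columns, by region number), as log2(CPM + 20) minus the member's mean over the 8 healthy and injured non-immune segments, with the color scale clipped at 2 in either direction. The 4 peri-injured non-immune columns are red for nearly all members, region 10 is paler than its neighbors for some members and darker for others, and no immune column is red throughout.

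Members that were clear of all other non-immune segments were led by RTS0064734, RTS0066159, RTS0069290, RTS0068467 and RTS0066307, which had the widest gaps between their lowest peri-injured and highest other value. RTS0064734 had 104, 111, 109 and 149 CPM in peri-injured regions 6, 9, 10 and 12, against 43.7, 40.0, 62.5, 46.6 and 50.2 CPM in injured regions 4, 5, 7, 8 and 11 and 29.4, 32.1 and 62.3 CPM in healthy regions 1, 3 and 13. Its peri-injured values lay close together except for region 12, and the nearest other segments were injured region 7 and healthy region 13. In immune segments it was measured at 42.8, 91.1, 44.7 and 60.6 CPM in peri-injured regions and between 47.5 and 83.6 CPM in injured regions, which overlap. RTS0066159 had 145, 139, 180 and 159 CPM in peri-injured regions, 83.9, 74.3, 78.7, 48.7 and 70.2 CPM in injured regions, and 88.2, 60.2 and 87.2 CPM in healthy regions. No other non-immune segment came within 50 CPM of its lowest peri-injured value. In the immune segments this probe was low and uneven, with no count in peri-injured region 9 and 60.6 CPM in region 12.

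RTS0069290 reached 276, 246, 222 and 308 CPM in peri-injured regions 6, 9, 10 and 12. It had 57.1, 146, 55.6, 63.6 and 80.3 CPM in injured regions 4, 5, 7, 8 and 11, and 113, 128 and 87.2 CPM in healthy regions 1, 3 and 13. Injured region 5 was far above the other injured regions yet under all peri-injured ones. RTS0068467 was measured at 145, 161, 104 and 139 CPM in peri-injured regions, 57.1, 71.4, 48.6, 33.9 and 70.2 CPM in injured and 63.7, 48.2 and 49.8 CPM in healthy regions. RTS0066307 was measured at 213, 204, 153 and 224 CPM in peri-injured regions, 36.9, 109, 67.1, 80.5 and 68.2 CPM in injured and 93.1, 72.3 and 49.8 CPM in healthy regions. For both probes region 10 was the lowest of the peri-injured regions and still above all healthy and injured ones. In its immune segments, RTS0066307 was highest in healthy region 1, at 183 CPM, and had no count in injured region 11.

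Other members with a high m had the same arrangement with less room between the classes. RTS0068880 had 217, 250, 234 and 194 CPM in peri-injured regions against 57.1, 151, 90.3, 72.0 and 104 CPM in injured and 93.1, 100 and 62.3 CPM in healthy regions. RTS0076099 had 167, 221, 142 and 214 CPM in peri-injured regions against 40.3, 103, 53.2, 50.8 and 64.2 CPM in injured and 93.1, 80.3 and 49.8 CPM in healthy regions. RTS0076225 had 226, 171, 170 and 209 CPM in peri-injured regions against 87.3, 123, 69.4, 57.2 and 114 CPM in injured and 73.5, 32.1 and 37.4 CPM in healthy regions. None of these 3 overlapped between peri-injured and other non-immune segments, and region 5 held the highest injured value of each.

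RTS0069822 had the second highest m of all members, 1.18, but overlapped. Its peri-injured values in regions 6, 9, 10 and 12 were 351, 329, 241 and 427 CPM, its injured values in regions 4, 5, 7, 8 and 11 were 90.7, 251, 99.5, 61.4 and 124 CPM, and its healthy values were 113, 145 and 112 CPM. Injured region 5 was just above peri-injured region 10, and the other 3 peri-injured regions were above everything else. RTS0066928 overlapped in the same way, with 143, 164, 276 and 109 CPM in peri-injured regions and 129 CPM in injured region 5. Its other injured values were 57.1, 85.6, 67.8 and 76.2 CPM, and its healthy values were 39.2, 64.2 and 49.8 CPM. Region 10 was its highest peri-injured region, whereas it was the lowest for RTS0069822.

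**Figure D3:**
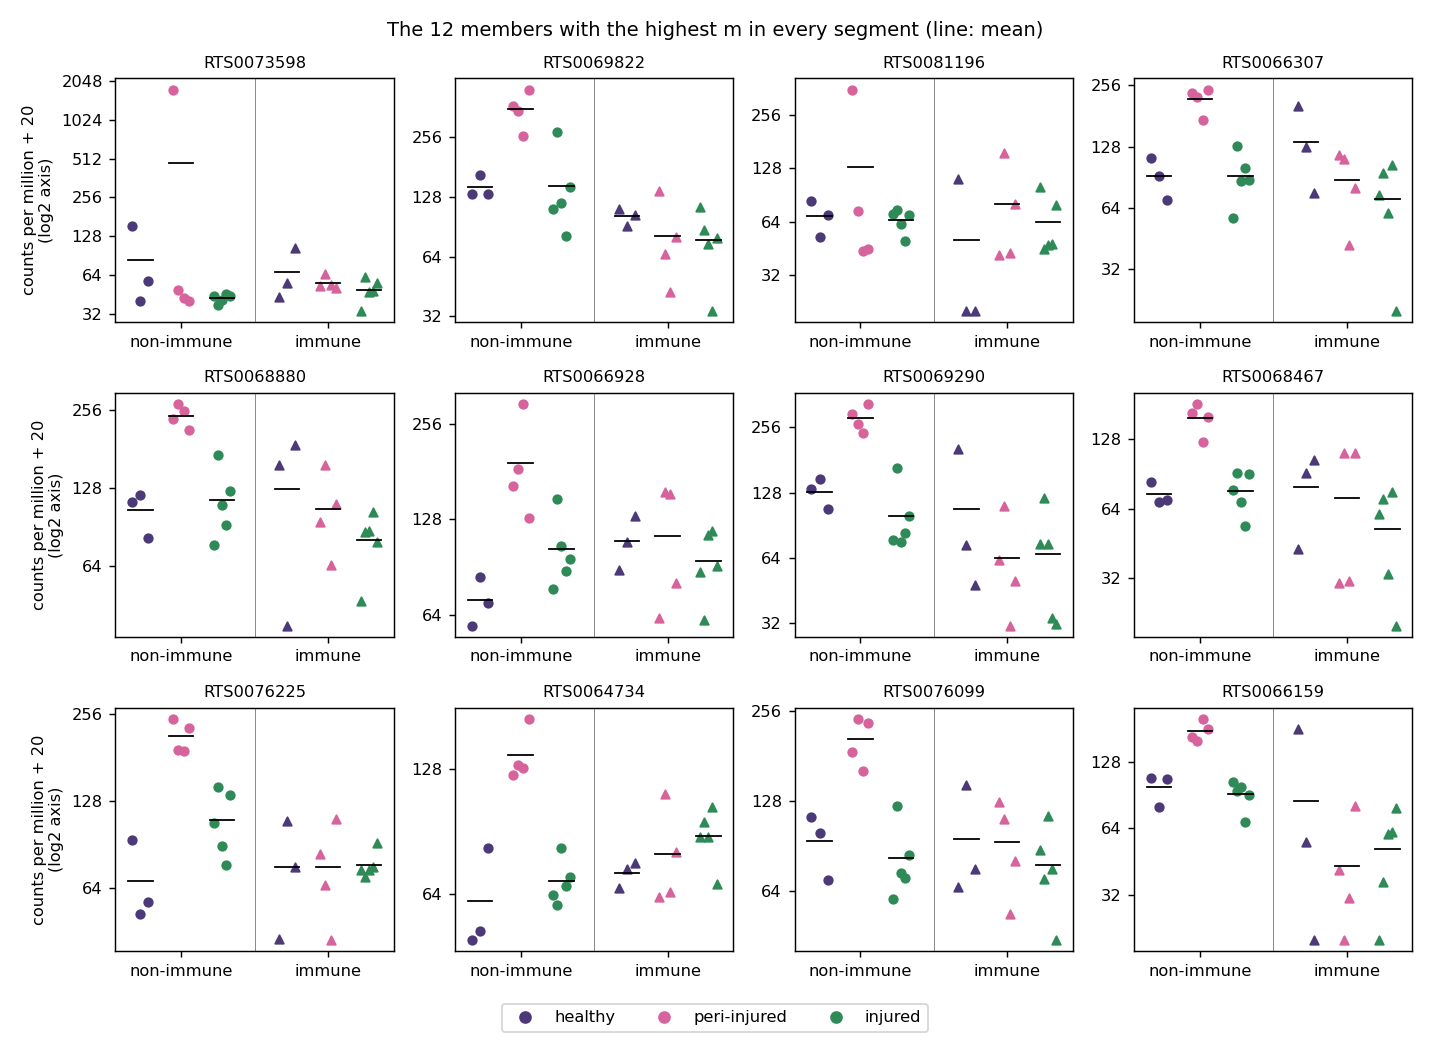
Each panel is 1 of the 12 members with the highest m, with CPM + 20 on a log2 axis for the 12 non-immune (circles) and 12 immune (triangles) segments, colored by region class, and a line at the mean of each class. For RTS0073598 and RTS0081196 a single peri-injured non-immune segment, region 6 at 1743 and 337 CPM, is far above the others.

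A few members owed their place to 1 region. RTS0073598, the member with the highest m (2.82), had 1743 CPM in peri-injured region 6 and 28.6, 22.3 and 19.9 CPM in regions 9, 10 and 12. Injured regions had 23.5, 17.1, 20.8, 25.4 and 24.1 CPM and healthy regions 132, 20.1 and 37.4 CPM. Region 6 held 96.1% of its summed peri-injured CPM, the other 3 peri-injured regions were within the range of the injured and healthy ones, and the next highest segment was healthy region 1. RTS0081196 had 337 CPM in region 6 against 53.6, 23.8 and 24.8 CPM in regions 9, 10 and 12, 29.7 to 54.3 CPM in injured and 32.1 to 63.7 CPM in healthy regions. Without region 6 the m of RTS0073598 was -0.98 and that of RTS0081196 -0.38, so that neither was raised in the remaining peri-injured regions.

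Region 10 held the highest level of others. RTS0077870 had 167 CPM there and 48.4, 75 and 29.8 CPM in regions 6, 9 and 12, against 45.7 to 73.9 CPM in injured regions, and its m without region 10 was -0.062. RTS0064448 had 155 CPM in region 10 and 86.0, 39.3 and 29.8 CPM in regions 6, 9 and 12, against 44.1 to 70.5 CPM in injured regions. RTS0063637 had 170 CPM in region 10 and 91.4, 64.3 and 54.7 CPM in the others, against 41.7 to 68.2 CPM in injured and at most 28.1 CPM in healthy regions, where region 13 had no count. Across the list, the highest peri-injured region held over 50% of a member's summed peri-injured CPM for 3 members, and at most 35% for 48.

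The members did not share 1 pattern over the 4 peri-injured regions. Region 10, which had the most counts of all segments, was the highest peri-injured region for 22 members (36.7%) and the lowest for 23 (38.3%), against 22.4% and 25.1% of the 6000 probes. Regions 6, 9 and 12 were highest for 12, 8 and 18 members, against 21.1%, 26.5% and 30.1% of the 6000 probes. For the members highest in region 10 the median level was 119, 116, 154 and 109 CPM in regions 6, 9, 10 and 12, and for those lowest in it 204, 204, 130 and 204 CPM. The values in region 10 formed these groups, and in the other 3 regions the medians of each group were close to each other. Regions 6 and 10, chosen by the study as nearer to the injury, were both above the more distant regions 9 and 12 in 11 members, and both below them in 11, against 19.3% and 19.8% of the 6000 probes. Variance beyond counting was common. The ratio of the chi-square statistic of the 4 peri-injured counts to its degrees of freedom, which is near 1 under counting error alone, had a median of 2.11 over the members and was above 2 in 31 of 60 (51.7%), against 32.6% of the other probes with at least 300 counts and 23.7% of the candidates that were not members.

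The choice summed counts, so that deep regions weighed more, and of the regions, leaving out region 10 changed the list most. Then 25 of the 60 members were found again in a new list of 52, and without region 6 there were 36. With any other single region left out, 40 to 50 members were found again. Without region 10 the new list of 52 was under the maximum of 60, so that no member was lost by rank. Since 53 of the 60 kept an m of at least 0.4 there, most losses came from the minimum of non-immune counts or the immune limits. How many came from each was not counted. Without region 6, where 58 kept that m, most losses were changes of rank or of another limit than that on m. With the median over segments in place of the pooled level, 32 members were found again and 52 kept that m.

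**Figure D4:**
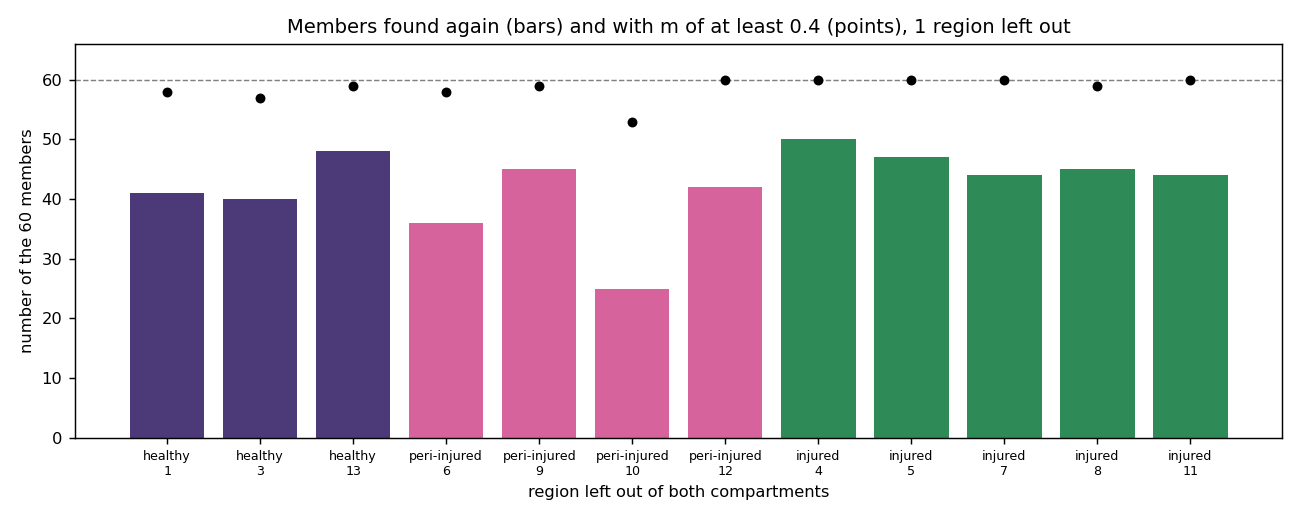
Number of the 60 members found again (bars, from 0) and number with an m of at least 0.4 (points) when 1 region is left out of both compartments, by the region left out, colored by class, with a dashed line at 60. The bars are lowest for peri-injured regions 10 and 6, at 25 and 36, while the points stay between 53 and 60.

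The immune levels of the members rest on few counts. The median member had 12 counts in the 4 peri-injured immune segments together (range 5 to 37), beside a median of 447.5 counts over all non-immune segments. The exact 95% interval of the immune ratio of peri-injured to injured CPM had a median lower bound of 0.420-fold and a median upper bound of 2.04-fold, beside a median ratio of 0.964-fold, and covers counting error only. It reached 2-fold or more for 32 of the 60 members. The immune interval lay wholly below the non-immune one for 14 members against injured regions, 17 against healthy regions and 4 for both. For most members the intervals of the compartments were thus not apart. These values chose the members, so the counts are a description.

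Injured against healthy regions was not itself a contrast of the choice, but the non-immune levels entered m and the immune levels the limits. The members' calls were near the share of all probes, and are not independent of the choice. In the non-immune segments 1 of 60 members was called at an adjusted p under 0.05 in edgeR's quasi-likelihood test, against 2.38% of the 6000 probes tested, and 0.767% were called higher as this member was. Without adjustment 11 members (18.3%) had a p under 0.05, against 1078 (18%) of all probes. The median log2 fold change was 0.10 over the members and 0.15 over all probes, and with TMM scaling, which moved the median of all probes to 0.02, it was -0.03. Relative to all probes the members thus moved by about as little under either scaling, while the number of members above 0 was 37 in the first and 28 in the second.

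The called member was RTS0076356. Its non-immune levels in injured regions 4, 5, 7, 8 and 11 were 77.2, 123, 76.4, 65.7 and 154 CPM, and in healthy regions 1, 3 and 13 they were 73.5, 24.1 and 12.5 CPM. Its peri-injured levels in regions 6, 9, 10 and 12 were 176, 143, 165 and 194 CPM. The classes thus ran from healthy over injured to peri-injured, with healthy region 1 inside the injured range and injured region 11 inside the peri-injured range. Injured was higher than healthy by 1.44 on the log2 scale (SE 0.39, adjusted p = 0.0466, edgeR). An exact two-sided permutation test of the CPM, for which 0.0357 is the smallest possible value, gave p = 0.0714. The call held in 6 of 15 fits of the same comparison, with an adjusted p from 0.0218 to 0.254 and a log2 fold change from 1.11 to 2.35. It was lost without healthy region 3 or 13 or injured region 5, 7 or 11, where the log2 fold change was 1.11, 1.22, 1.37, 1.52 and 1.21 and the adjusted p between 0.0501 and 0.254 (edgeR). In the immune segments its injured levels of 40.5 to 107 CPM also overlapped the healthy levels of 22.9 to 53.4 CPM, and the difference of 1.24 had an adjusted p of 0.506 by edgeR.

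In the immune segments 45 members were abundant enough for the test, and 0 of them were called between injured and healthy regions by edgeR, against 0.717% of the 6000 probes. DESeq2 called 0 too, but gave no adjusted p for 41 of the 45 members, so that its count says little. Without adjustment 0 of the 45 had a p under 0.05 in edgeR, against 596 probes (9.93%). The 15 members that were not tested fell short of the abundance limit in that compartment.

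In injured regions the members were mostly a little higher outside the immune segments. Members needed a minimum of counts in the non-immune segments only, so that this order is not independent of the choice. The non-immune level was above the immune level in 54 of 60 members, with a median log2 fold change of 0.49 against 0.15 over all 6000 probes. This count depended on the scaling and the fit. It was 49 with TMM, where the medians were 0.34 and 0.002, 45 with DESeq2, and 42 with the log10 total as covariate. The share of all probes above 0 was not counted. By edgeR 0 members passed the adjusted threshold, against 2.5% of the probes, and 17 had an unadjusted p under 0.05, against 783 probes (13.1%). DESeq2 also called 0, with no adjusted p for 6 members. With the region as a block, 5 members passed, all higher in the non-immune segments, where 2.43% of the probes were called in that direction. They were RTS0069822 (log2 fold change 1.26, SE 0.32, adjusted p = 0.00786), RTS0069910 (1.19, SE 0.33, adjusted p = 0.0209), RTS0071257 (1.37, SE 0.34, adjusted p = 0.0074), RTS0072062 (1.17, SE 0.30, adjusted p = 0.00831) and RTS0079955 (1.30, SE 0.36, adjusted p = 0.0182), named because of that result. The adjusted p of these members ran from 0.0639 to 0.113 without the block.

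The levels of these 5 in injured regions show the order within regions. RTS0071257 had 104, 189, 92.6, 55.1 and 118 CPM in the non-immune segments of regions 4, 5, 7, 8 and 11 and 13.5, 33.5, 94.4, 55.7 and 47.5 CPM in their immune segments. It was higher outside the immune segment by a wide margin in regions 4, 5 and 11 and about equal in regions 7 and 8. RTS0072062 had 121, 157, 194, 127 and 144 CPM in the non-immune and 67.5, 25.1, 121, 69.7 and 95.1 CPM in the immune segments, and was higher in the non-immune segment of all 5 regions. RTS0069822 had 94.5, 66.9, 54.0, 13.9 and 59.4 CPM in the immune segments, above its non-immune value in region 4 alone. RTS0069910 had 70.5, 189, 97.2, 61.4 and 110 CPM in the non-immune and 27.0, 50.2, 94.4, 27.9 and 59.4 CPM in the immune segments, with the closest values in region 7. RTS0079955 had 124, 143, 109, 84.7 and 102 CPM in the non-immune and 0, 58.6, 94.4, 69.7 and 23.8 CPM in the immune segments, and was higher in the non-immune segment of every region.

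Whether the change from healthy to injured regions differed between the compartments was tested directly. The levels compared had entered the choice, which also limited the difference between compartments in healthy regions. The members' results are thus not independent of the choice. By edgeR 0 of 60 members and 0% of the 6000 probes passed, with 1 member and 284 probes (4.73%) at an unadjusted p under 0.05, and DESeq2 called 0 as well, with no adjusted p for 2 members. The interaction estimate had a median of 0.04 over the members and -0.09 over all probes. These fits left out the pairing of segments by region. With the region as a block, 0 members and 7 of the 6000 probes passed by edgeR.

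Members with the most counts were not those with the highest m, apart from RTS0073598 and RTS0069822. RTS0070894 had 260, 218, 225 and 273 CPM in peri-injured regions 6, 9, 10 and 12, against 111, 146, 141, 104 and 146 CPM in injured and 147, 100 and 187 CPM in healthy non-immune segments, with no overlap. RTS0075005 had 267, 279, 142 and 358 CPM in peri-injured regions, 73.9, 117, 81.0, 65.7 and 138 CPM in injured and 147, 141 and 162 CPM in healthy regions. Its peri-injured region 10 fell inside the healthy range and the other 3 were above it. RTS0072062 had 249, 354, 140 and 239 CPM in peri-injured regions and 108, 132 and 162 CPM in healthy ones, and again region 10 alone lay among the healthy and injured values.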

How the data were processed

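RNA of formalin-fixed mouse lung sections was captured by region and stain with the GeoMx whole-transcriptome panel. The deposited values are unnormalized counts of molecules for each probe, made by the authors with the GeoMx NGS Pipeline 2.3.4, which counts each molecular identifier once. Files of 24 segments were used, and a probe missing from a file was read as 0. A reaction without tissue and the annotation sheets were not used. Groups came from the sample labels.

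The members, lists and tests were chosen with earlier results of these data known. Named probes are the 12 members with the highest m, the 5 with the most non-immune counts, those called in a test, the 3 on either side of the end of the list, the 5 with the largest share in 1 region and the 5 with the widest gap.

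The 6000 most abundant probes of a compartment, or of both, by mean share of counts entered edgeR 4.0.16 (R 4.3.3) and its quasi-likelihood test, with upper-quartile factors, 1 term per class and compartment, and Benjamini-Hochberg adjustment, and called at an adjusted p under 0.05. The SE is the log2 fold change divided by the square root of F. Alternatives were TMM, DESeq2 1.42.0, no filter, 10000 probes, thinning to the shallowest segment, the log10 total as covariate, leaving out each region, and the region as replicate block. Both segments of a region come from 1 place by the labels, so region numbers pair them. Their deviations from class means correlated from 0.0036 to 0.145 over 12 pairs (median 0.0625), against a median of -0.0155 for other pairs of a class. The tests were first run on simulated counts. Intervals and totals of 21955 to 671249 counts cover counting error only. Plots were drawn with matplotlib 3.10.9.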

Additional observations from a re-analysis of the deposited data

Results flagged for a closer look

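Of 66 groups of 4 or 5 segments examined, 5 held a value far from the rest by Dixon's criterion at the 95% level, and chance flags about 1 group in 20. The named probes among these groups were picked from the same data. RTS0073598 and RTS0081196 were named for their large share in 1 region, so their flags followed from the choice and cannot be set against that rate. RTS0073598 had 1743 CPM in the non-immune segment of peri-injured region 6, where the other 3 peri-injured regions had 19.9 to 28.6 CPM. In the same segment RTS0081196 had 337 CPM against 23.8 to 53.6 CPM. RTS0064734 had 149 CPM in the non-immune segment of peri-injured region 12 and 104 to 111 CPM in the other 3. RTS0069290 had 146 CPM in the non-immune segment of injured region 5 and 55.6 to 80.3 CPM in the other 4. The immune segment of the same injured region 5 had a total of 119493 counts, whereas the other injured immune segments had 71786 to 84152.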

How the results depend on the processing

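The m of 24 named members was computed under 19 other settings, which gave 456 values. Of these, 134 were identical to the reported value. A changed minimum of counts cannot change m, and leaving out a region of the class that did not set m often left it as it was. Such identical values say nothing about stability. Of the 456 values, 9 moved by more than the SD over the peri-injured regions and 6 reversed. That SD is wide where 1 region leads, and the mean over segments lowered m to 0.64 for RTS0073598 and 0.33 for RTS0081196. With the median over segments m was -0.34 for RTS0073598, -0.29 for RTS0081196 and -0.063 for RTS0064448. Leaving out 1 region gave -0.98 (without region 6) to 3.77 for RTS0073598, -0.38 (without region 6) to 1.72 for RTS0081196 and -0.062 (without region 10) to 0.905 for RTS0077870. The cause was not tested. A minimum of 600 counts left 10 members, where the rule chose only 12 probes, the median over segments 32, and leaving out a region 25 to 50. Injured against healthy in non-immune segments called 1 member and 143 probes (46 higher, 97 lower). TMM called 0 members (24 probes higher, 152 lower), and DESeq2 called 3, of which 2 were higher and 1 lower (29 probes higher, 179 lower). No filter called 0 members (139 of 20175 probes), 10000 probes 0 (153 probes), the covariate 0 (45 probes) and thinning 1 (78 probes). Leaving out a region called 0 to 1 members and 70 to 236 probes. The most probes were called without region 5, where the 1 member called was lower in injured regions. In immune segments 43 probes became 24 thinned, 26 with the covariate and 20 to 37 without a region. Between compartments of injured regions, 0 members and 150 probes (75 higher, 75 lower) became 1 member with no filter or the covariate, 5 members and 232 probes with the replicate block, 24 probes thinned, 36 higher and 92 lower with TMM, 34 and 120 with DESeq2, and 0 to 1 members and 67 to 164 probes without a region. For the difference between compartments 0 probes became 1 with the covariate and 7 with the block. The block changed no other call. Counts of 5 to 37 per member limit the peri-injured immune levels.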
